A study of Mus musculus with 9 samples.

Results

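A set of 10 acute phase genes was followed in mouse (Mus musculus) jejunum after total parenteral nutrition (TPN, the infusion of nutrients into a vein). The genes were Saa1, Saa2, Saa3, Lcn2, Lrg1, Serpina3n, Hp, C3, Steap4 and Il1rn, or 10 of the 21868 genes in the deposited count table. They were taken by symbol from a set proposed as raised by TPN, so the TPN and sham counts themselves stood behind the choice. Their differences between TPN and sham are therefore a description, and no p is given for them. The name did not hold for each of them. Hp and C3 averaged lower in TPN than in sham libraries, each through 1 high sham library without which the direction turned, and Saa1 and Saa2 had too few reads to be placed.

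RNA was sequenced in bulk from 3 groups of 3 libraries each, namely TPN, starvation and sham. Every group was treated for 24 h, after which 5 cm of jejunum was taken and opened along its length. The labels give no strain, sex, age or genotype, and do not say what the sham treatment consisted of or how the infusate was made up. Because whole tissue was used, RNA of any cell type in the gut wall can be present, and fewer cells of a type cannot be told apart from less RNA per cell.

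Acute phase genes encode secreted and membrane proteins whose production changes in inflammation. The liver is their best known source, but epithelium, fat, macrophages and neutrophils make several of them locally. In textbook accounts, IL-6 family cytokines act through STAT3 and IL-1 acts through NF-kB, both together with C/EBP factors and glucocorticoids, to raise their transcription. In the intestine, serum amyloid A proteins and lipocalin 2 are known as epithelial products induced by microbes and cytokines.

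Library totals ran from 7779877 to 12084278 reads, and 1 read corresponded to 0.0798 to 0.119 CPM (counts scaled by library size and by the trimmed mean of M values, TMM). The 13 epithelial markers of the labelled tissue were all detected in each group. They summed to 26148 to 31323 CPM in TPN, 22834 to 91661 CPM in starvation and 38142 to 71261 CPM in sham libraries. All TPN sums thus lay below all sham sums. The 3 ileal markers summed to 3.20 to 4.89 CPM in TPN, 0.957 to 2.20 CPM in starvation and 0.750 to 1.47 CPM in sham libraries. Sham replicate 2 stood apart with smooth muscle markers at 9673 CPM, against 1169 and 1269 CPM in the other sham libraries. Its mesothelial markers were also high, at 618 CPM. Starvation replicate 3 stood apart with epithelial markers at 91661 CPM, against 22834 and 33838 CPM in the other starvation libraries. For the genes whose values moved most without these libraries, both values are given. The labels call the replicates biological without saying that each came from a separate mouse, so p-values measure only how these samples vary, and that variation may be technical.

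Of the 10 genes, 8 had enough reads for the edgeR quasi-likelihood fit across 14668 genes, and Saa1 and Saa2 did not. Between TPN and sham libraries, 5 of the 8 reached an adjusted p under 0.05 with higher TPN values, namely Saa3, Lrg1, Serpina3n, Steap4 and Il1rn, and 0 with lower values, beside 3.48% of all tested genes called higher and 5.12% called lower. The TPN and sham libraries did not overlap for 6 of the 8, those 5 and Lcn2, beside 21.3% of all tested genes that were higher without overlap. Since the genes were chosen on this contrast, these counts restate the choice, and nothing is read from them or from the shares. The median log2 fold change of the 8 was 2.88 between TPN and sham, beside -0.02 over all tested genes. When each of the 9 libraries was left out in turn, the number called ran from 2 to 6. It was 2 without sham replicate 3 or any 1 of the TPN libraries, 3 without sham replicate 1 or starvation replicate 2, and 6 without starvation replicate 3.

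**Figure D1:**
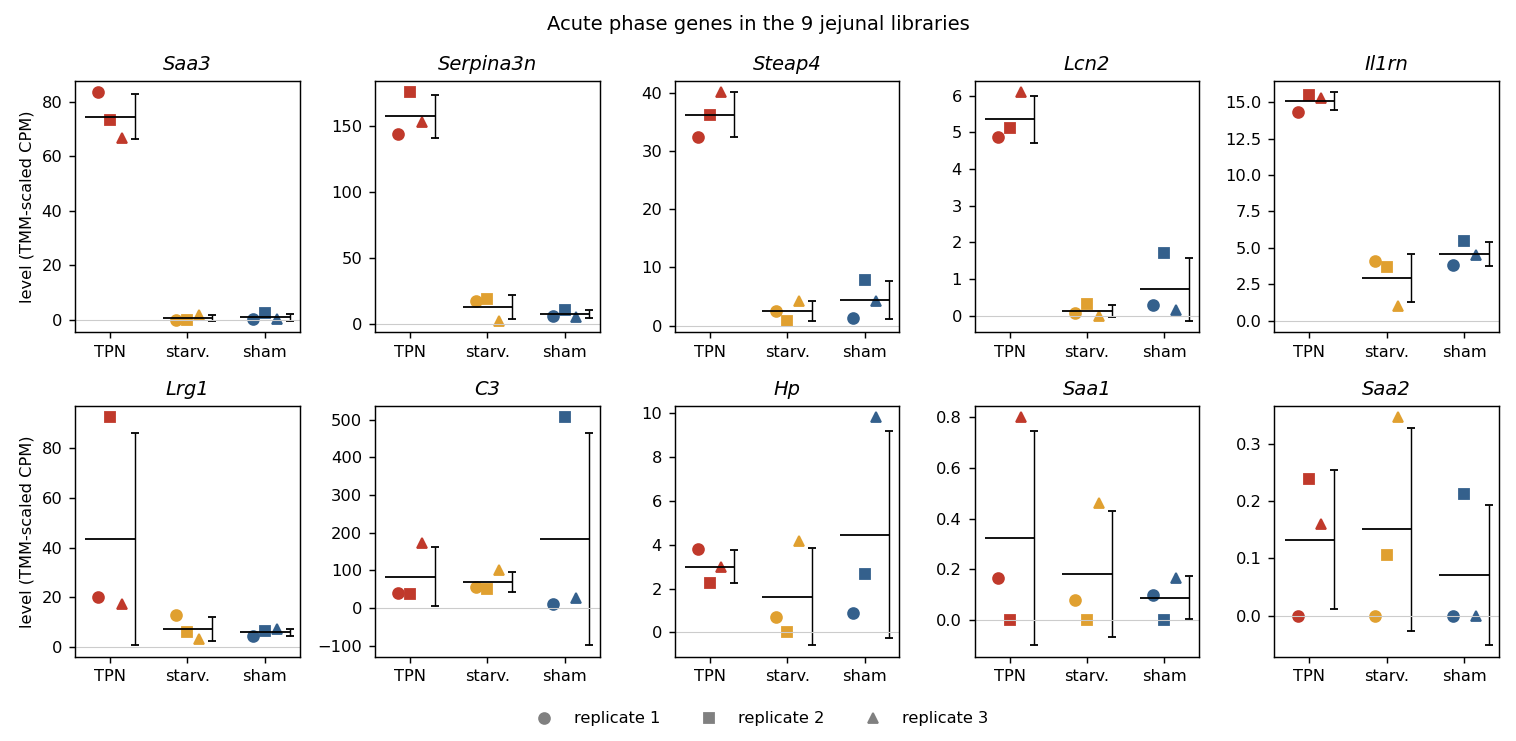
Level of each of the 10 genes in the 9 libraries (y axes, TMM-scaled CPM, linear and different for each gene), with TPN, starvation and sham from left to right. Points are libraries, horizontal bars are group means and error bars are SD (n = 3). Saa3 sits between 66.9 and 83.6 CPM in TPN and at or under 2.24 CPM in all other libraries, while C3 is highest in sham replicate 2.

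The serum amyloid A genes encode small apolipoproteins carried on high density lipoprotein. Saa3 (chr7:46711998-46715700, minus strand, GRCm38, as are the positions that follow) is the family member known for expression outside the liver in mice, in epithelium, fat and macrophages. It had 1014, 617 and 836 reads in TPN replicates 1 to 3, against 2, 21 and 1 reads in sham replicates 1 to 3. Starvation replicates 1 to 3 had 0, 0 and 16 reads. On the CPM scale, Saa3 averaged 74.7 ± 8.37 in TPN, 0.617 ± 1.07 in starvation and 0.840 ± 1.21 in sham libraries (SD, n = 3 each). All TPN libraries lay far above all others, and the few reads outside TPN came mostly from starvation replicate 3 and sham replicate 2.

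The log2 fold change of Saa3 between TPN and sham was 6.54 ± 1.03 (SE). Pooled over libraries, the ratio of TPN to sham reads was 98.3, with a 95% interval of 65.9 to 154 that covers counting error only. Without sham replicate 2, which held 21 of the sham reads, the log2 fold change was 8.99. Between starvation and sham, Saa3 differed by -0.52 ± 1.32 on the log2 scale (adjusted p = 0.846), and both sign and size turned on single libraries. Without sham replicate 2 the difference was 1.91 (adjusted p = 0.568). Without starvation replicate 3 the starvation libraries had 0 reads, and the level was at least 5.58-fold lower in starvation than in sham libraries, against a floor of 3 counts over the group. The sham and starvation levels are each close to a handful of reads, so a difference between them was not detectable at this depth.

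The promoters of the genes with the widest separation between TPN and the other libraries are shown. That these genes moved together follows in part from their choice. Each window is the 250 bases upstream of the RefSeq start on GRCm38.p6, read 5′ to 3′ on the gene's strand. Capitals mark matches, on either strand, to the searched letters for STAT (TTCNNNGAA, or the same with a gap of NNNN), C/EBP (TTNNGNAA), NF-kB (GGG, then NN, then TTTCC or TTCCC) and the full glucocorticoid receptor site (GNACA, then NNN, then TGTNC). The windows are chr7:46715677-46715926 for Saa3, chr12:104406458-104406707 for Serpina3n, chr5:7960222-7960471 for Steap4 and chr2:32387740-32387989 for Lcn2.
Saa3: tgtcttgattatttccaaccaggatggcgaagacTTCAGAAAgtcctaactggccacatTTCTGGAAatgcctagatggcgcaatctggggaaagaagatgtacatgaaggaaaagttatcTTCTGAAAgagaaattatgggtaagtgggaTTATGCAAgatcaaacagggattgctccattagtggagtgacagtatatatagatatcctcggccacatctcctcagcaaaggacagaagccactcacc
Serpina3n: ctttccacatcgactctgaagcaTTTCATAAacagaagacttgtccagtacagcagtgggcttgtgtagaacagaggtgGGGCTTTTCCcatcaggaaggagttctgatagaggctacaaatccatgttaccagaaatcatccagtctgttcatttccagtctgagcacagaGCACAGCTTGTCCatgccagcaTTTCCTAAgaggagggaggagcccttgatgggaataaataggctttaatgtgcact
Steap4: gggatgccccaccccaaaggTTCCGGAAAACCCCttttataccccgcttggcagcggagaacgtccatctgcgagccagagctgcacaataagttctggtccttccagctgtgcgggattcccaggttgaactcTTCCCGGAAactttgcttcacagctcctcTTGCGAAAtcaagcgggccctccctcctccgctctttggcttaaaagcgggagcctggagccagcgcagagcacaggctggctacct
Lcn2: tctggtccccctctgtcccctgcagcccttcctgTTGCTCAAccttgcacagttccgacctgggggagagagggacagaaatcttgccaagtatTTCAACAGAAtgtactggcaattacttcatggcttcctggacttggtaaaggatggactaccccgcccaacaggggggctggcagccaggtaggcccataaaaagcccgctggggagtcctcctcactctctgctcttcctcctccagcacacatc

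The Saa3 window held 4 C/EBP matches and none of the other motifs. Serpina3n held 2 C/EBP matches, an NF-kB match and a full glucocorticoid receptor match. Steap4 held a STAT match and 2 C/EBP matches, of which the one farther from the start overlaps an NF-kB match on the other strand, so that they form 1 run of capitals. Lcn2 held a STAT match with the wider gap and a C/EBP match.

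Of the 10 genes, 9 had an entry among the RefSeq promoters, and they were searched over 250 bases before to 50 bases after each start. The C/EBP letters were found for 8 of the 9, beside 44.1% of all 27025 genes with a promoter. The NF-kB letters ending in TTTCC were found for 3 of the 9, Serpina3n, Steap4 and Il1rn, beside 1.89% of genes, and those ending in TTCCC for 0 of the 9, beside 2.01%. The STAT letters with the narrower gap were found for Steap4 only, beside 9.55% of genes, and those with the wider gap for Lcn2 and Il1rn, beside 8.01%. The shorter glucocorticoid receptor motif TGTTCT, not in capitals above, was found for Serpina3n only, beside 21.3% of genes, as was the full site, beside 0.537%. A match is a description of the letters in the window and no evidence that a factor binds there.

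Saa1 (chr7:46740497-46742980, minus strand) and Saa2 (chr7:46751790-46754313, plus strand) encode the closely similar acute phase forms that the liver secretes into plasma. Saa1 had 2, 0 and 10 reads in TPN replicates 1 to 3, 1, 0 and 4 reads in starvation replicates 1 to 3, and 1, 0 and 2 reads in sham replicates 1 to 3. Saa2 had 0, 2 and 2 reads in TPN replicates 1 to 3, 0, 1 and 3 reads in starvation replicates 1 to 3, and 0, 2 and 0 reads in sham replicates 1 to 3. Both genes overlapped between the groups. The pooled ratio of TPN to sham reads was 3.82 for Saa1, with a counting interval of 1.03 to 21.1, and 10 of its 12 TPN reads came from replicate 3. For Saa2 it was 1.91, with a counting interval of 0.274 to 21.1. Of the words of 50 bases in their transcripts, 14.8% in Saa1 and 9.12% in Saa2 also occur in other genes, so how reads were divided among them is uncertain.

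Saa4, a serum amyloid A gene outside the chosen 10, had 13, 8 and 12 reads in TPN replicates 1 to 3, 0, 0 and 1 reads in starvation replicates 1 to 3, and 0, 1 and 0 reads in sham replicates 1 to 3. No TPN library overlapped with the others. It passed the test between TPN and sham with a log2 fold change of 4.52 ± 0.99 (adjusted p = 0.0261). Saa4 had enough reads for the test through the TPN libraries alone, so the call follows in part from the filter. The call was lost when sham replicate 1, sham replicate 3 or any TPN library was left out, where the adjusted p reached 0.107.

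Serpina3n (chr12:104406729-104414329, plus strand) encodes a secreted inhibitor of serine proteases, a mouse counterpart of human alpha-1-antichymotrypsin. It had 1740, 1470 and 1904 reads in TPN replicates 1 to 3, or 143, 175 and 152 CPM. In starvation replicates 1 to 3 it stood at 16.9, 18.9 and 2.20 CPM. In sham replicates 1 to 3 it stood at 5.50, 10.6 and 5.33 CPM. Every TPN library lay far above all libraries of the other groups, and starvation replicates 1 and 2 lay above all sham libraries while starvation replicate 3 lay below them.

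Serpina3n averaged 157 ± 16.4 CPM in TPN, 12.7 ± 9.12 CPM in starvation and 7.13 ± 2.97 CPM in sham libraries (SD, n = 3 each), and its log2 fold change between TPN and sham was 4.47 ± 0.63. In starvation against sham it was 0.85 ± 0.59 and did not pass the test (adjusted p = 0.408). Without starvation replicate 3 that difference was 1.31 and passed (adjusted p = 0.0217), and without both starvation replicate 3 and sham replicate 2 it was 1.72 (adjusted p = 0.00038). The lower level in starvation replicate 3 accompanied the high epithelial marker sum of that library, and the part of tissue makeup in the result was not tested.

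Serpina3n lies in a cluster of similar genes, and 6.90% of its 50-base words, but 0.204% of its 100-base words, occur in other genes. Of the other cluster members, 3 had enough reads, and 2 of them rose in TPN against sham, beside 3.48% of all tested genes called higher. Serpina3g, an intracellular inhibitor of cathepsins, stood at 50.9, 52.7 and 42.2 CPM in TPN replicates 1 to 3 and 19.8 to 22.7 CPM in sham libraries, a log2 fold change of 1.20 ± 0.18 (adjusted p = 0.00678). Its call held with each library left out. Serpina3f changed by 1.20 ± 0.30 (adjusted p = 0.0418), and that call was kept only when starvation replicate 1 or 3 was left out (adjusted p up to 0.171 otherwise).

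Lrg1 (chr17:56119678-56122001, minus strand) encodes leucine-rich alpha-2-glycoprotein, a secreted protein known to modify TGF-beta signalling through the co-receptor endoglin. It had 244, 777 and 217 reads in TPN replicates 1 to 3, or 20.1, 92.6 and 17.4 CPM. Starvation replicates 1 to 3 stood at 12.8, 6.12 and 3.24 CPM, and sham replicates 1 to 3 at 4.32, 6.51 and 7.16 CPM. The TPN libraries lay above all others, with replicate 2 far above replicates 1 and 3. Lrg1 averaged 43.4 ± 42.7 CPM in TPN, 7.40 ± 4.93 CPM in starvation and 6.0 ± 1.49 CPM in sham libraries (SD, n = 3 each).

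The log2 fold change of Lrg1 between TPN and sham was 2.84 ± 0.71, and without TPN replicate 2 it was 1.64. TPN replicate 2 also had the highest summed level of the 13 pancreatic acinar markers, 19276 CPM, against 382 and 40.8 CPM in TPN replicates 1 and 3. Among starvation libraries, replicate 1 had both the highest acinar sum, 2551 CPM, and the highest Lrg1. Among sham libraries, replicate 1 had the highest acinar sum, 3737 CPM, and the lowest Lrg1. The part of acinar RNA in the level of Lrg1 was not tested. Lrg1 differed between starvation and sham by 0.32 ± 0.69 (adjusted p = 0.815). Eng, which encodes endoglin, did not pass the test between TPN and sham, at -0.27 ± 0.29.

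Lcn2 (chr2:32384633-32388252, minus strand) encodes lipocalin 2, a secreted protein that binds bacterial siderophores and so withholds iron from microbes. It was low in this tissue, with 59, 43 and 76 reads in TPN replicates 1 to 3, 1, 3 and 0 reads in starvation replicates 1 to 3, and 3, 16 and 2 reads in sham replicates 1 to 3. Every TPN library lay above all others, and 16 of the 21 sham reads came from sham replicate 2. Lcn2 averaged 5.36 ± 0.644 CPM in TPN, 0.132 ± 0.165 CPM in starvation and 0.723 ± 0.855 CPM in sham libraries (SD, n = 3 each). The ratio of pooled reads, TPN to sham, was 8.10, with a counting interval of 5.14 to 13.4. The fitted log2 fold change was 2.91 ± 0.80, and 4.49 without sham replicate 2. Lcn2 differed between starvation and sham by -2.32 ± 1.05 (adjusted p = 0.219), and by -0.74 without sham replicate 2 (adjusted p = 0.694). The 4 reads in all starvation libraries limit what can be said of it. Slc22a17, which encodes a receptor for lipocalin 2, did not pass the test between TPN and sham, at -0.52 ± 0.39.

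Steap4 (chr5:7960457-7982213, plus strand) encodes a membrane metalloreductase that reduces iron and copper and is induced by inflammatory cytokines and feeding in mouse fat. It had 393, 304 and 501 reads in TPN replicates 1 to 3, or 32.4, 36.2 and 40.1 CPM. Starvation replicates 1 to 3 stood at 2.47, 0.844 and 4.17 CPM, and sham replicates 1 to 3 at 1.28, 7.79 and 4.17 CPM. The TPN libraries formed a tight set above all others, while starvation and sham overlapped. The means were 36.2 ± 3.87 CPM in TPN, 2.49 ± 1.66 CPM in starvation and 4.41 ± 3.26 CPM in sham libraries (SD, n = 3 each). The log2 fold change of Steap4 was 3.04 ± 0.60 between TPN and sham and -0.82 ± 0.62 between starvation and sham (adjusted p = 0.452).

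The other members of the STEAP family did not accompany Steap4 past the threshold. Steap1 differed by -0.10 ± 0.64, Steap2 by -0.06 ± 0.39 and Steap3 by -0.62 ± 0.33 between TPN and sham. Of these 3 genes, 0 were called by edgeR, beside 3.48% of all tested genes called higher and 5.12% called lower. An unadjusted p under 0.05 was reached by 0 of them, and 0 were called by DESeq2 or by limma voom.

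Il1rn (chr2:24336853-24351494, plus strand) encodes the interleukin-1 receptor antagonist, which occupies the IL-1 receptor without signalling. It had 174, 130 and 191 reads in TPN replicates 1 to 3, or 14.3, 15.5 and 15.3 CPM. Starvation replicates 1 to 3 stood at 4.07, 3.69 and 1.04 CPM, and sham replicates 1 to 3 at 3.83, 5.44 and 4.50 CPM. The TPN libraries were closely alike and lay above all others, and starvation overlapped with sham. The log2 fold change of Il1rn was 1.71 ± 0.40 between TPN and sham and -0.62 ± 0.41 between starvation and sham (adjusted p = 0.386).

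C3 (chr17:57203970-57228136, minus strand) encodes the central component of the complement cascade, at which its activation routes meet. It had 471, 318 and 2171 reads in TPN replicates 1 to 3, or 38.8, 37.9 and 174 CPM. Starvation replicates 1 to 3 stood at 56.2, 51.5 and 100.4 CPM, and sham replicates 1 to 3 at 11.8, 507 and 27.7 CPM. The groups overlapped, with sham replicate 2 the highest of all libraries and sham replicates 1 and 3 the lowest. C3 averaged 83.5 ± 78.2 CPM in TPN, 69.4 ± 27.0 CPM in starvation and 182 ± 281 CPM in sham libraries (SD, n = 3 each).

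The direction of C3 turned on sham replicate 2. The log2 fold change between TPN and sham was -1.12 ± 1.16 with all libraries, 2.08 without sham replicate 2, and 2.12 without sham replicate 2 and starvation replicate 3. Between starvation and sham it was -1.39 ± 1.17 (adjusted p = 0.502) with all libraries and 1.80 without sham replicate 2. The library that was highest for C3 in each group was also highest in the summed level of the 8 mesothelial markers. Those sums were 12.5, 7.75 and 85.8 CPM in TPN replicates 1 to 3, 9.26, 19.0 and 128 CPM in starvation replicates 1 to 3, and 18.7, 618 and 27.2 CPM in sham replicates 1 to 3. All 8 markers had reads in every group. Smooth muscle markers were likewise highest in the library of each group that was highest for C3. They summed to 1276 CPM in TPN replicate 3, 1395 CPM in starvation replicate 3 and 9673 CPM in sham replicate 2. The 8 fat cell markers, some of which enterocytes also express, were highest in the same libraries. They summed to 238 CPM in TPN replicate 3, close to the 233 CPM of TPN replicate 1, 646 CPM in starvation replicate 3 and 455 CPM in sham replicate 2. The part of the serosal lining, of smooth muscle or of fat in the level of C3 was not tested.

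**Figure D2:**
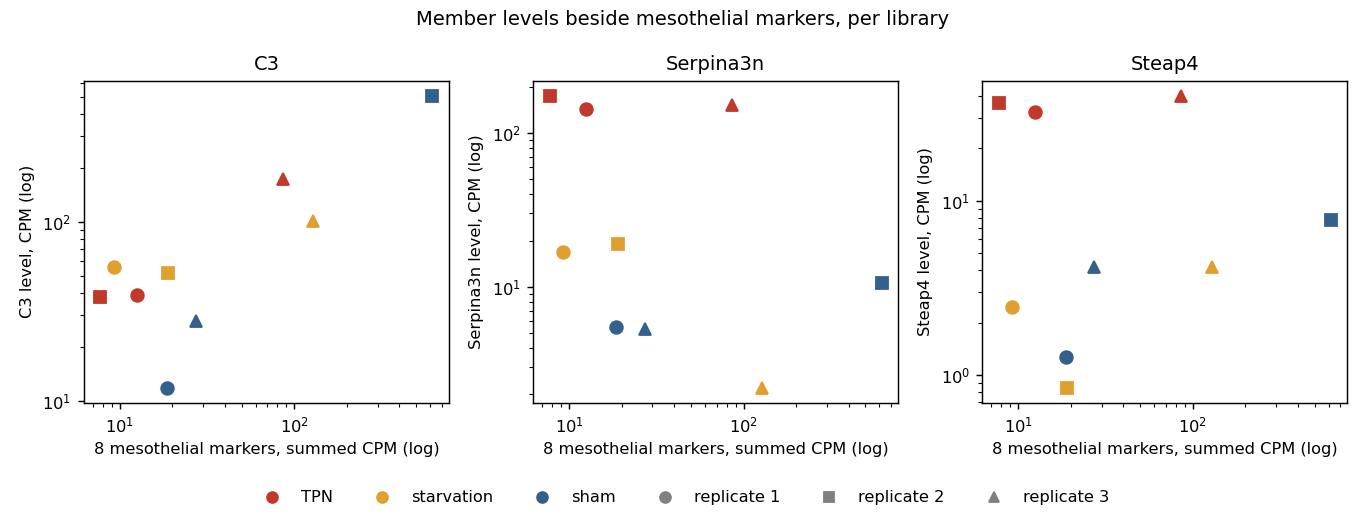
Levels of C3, Serpina3n and Steap4, from left to right (y axes, TMM-scaled CPM, log scale) against the summed level of 8 mesothelial markers (x axes, TMM-scaled CPM, log scale), 1 point a library, colours for groups and shapes for replicates. Sham replicate 2, at 618 CPM of mesothelial markers, carries the highest C3 level, 507 CPM, while for Serpina3n and Steap4 the TPN libraries lie above all others, with mesothelial sums from 7.75 to 85.8 CPM.

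Hp (chr8:109575128-109579172, minus strand) encodes haptoglobin, the plasma protein that binds free haemoglobin. It had 46, 19 and 37 reads in TPN replicates 1 to 3, 9, 0 and 36 reads in starvation replicates 1 to 3, and 9, 25 and 118 reads in sham replicates 1 to 3. The groups overlapped, and sham replicate 3 held the most reads. The means were 3.01 ± 0.764 CPM in TPN, 1.63 ± 2.23 CPM in starvation and 4.46 ± 4.74 CPM in sham libraries (SD, n = 3 each). The log2 fold change was -0.57 ± 1.07 between TPN and sham and -1.49 ± 1.12 between starvation and sham (adjusted p = 0.449). Without sham replicate 3, TPN against sham came to 0.77, so the direction depended on that library. Without starvation replicate 3 and sham replicate 2, Hp was lower in starvation than in sham by the test, at -3.74 (adjusted p = 0.0479). That fit called 2949 of all genes. It left 9 and 0 starvation reads against 9 and 118 sham reads, so the call leaned on sham replicate 3. Sham replicate 1 and starvation replicate 1 were close, at 0.883 and 0.718 CPM.

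Fat cells are a known source of haptoglobin in mice, and sham replicate 3 was also the library with the most reads of the fat cell genes Adipoq and Plin1. Adipoq had 0, 1 and 11 reads in TPN replicates 1 to 3, 7, 0 and 27 reads in starvation replicates 1 to 3, and 1, 0 and 186 reads in sham replicates 1 to 3. Plin1 had 135 reads in sham replicate 3 and between 0 and 13 in every other library. The 8 fat cell markers together, which include genes that enterocytes also express, summed to 193 to 238 CPM in TPN, 181 to 646 CPM in starvation and 266 to 455 CPM in sham libraries, with reads for 6, 7 and 8 of the 8. Their sum was 444 CPM in sham replicate 3, below the 455 CPM of sham replicate 2 and the 646 CPM of starvation replicate 3, so only Adipoq and Plin1, singled out after their values were seen, set sham replicate 3 apart. The part of fat in the level of Hp was not tested.

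Fold changes against sham and against starvation are set side by side in the plot of fold changes. The comparison of starvation with sham and that of TPN with starvation each share 3 libraries with the contrast on which the genes were chosen.

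**Figure D3:**
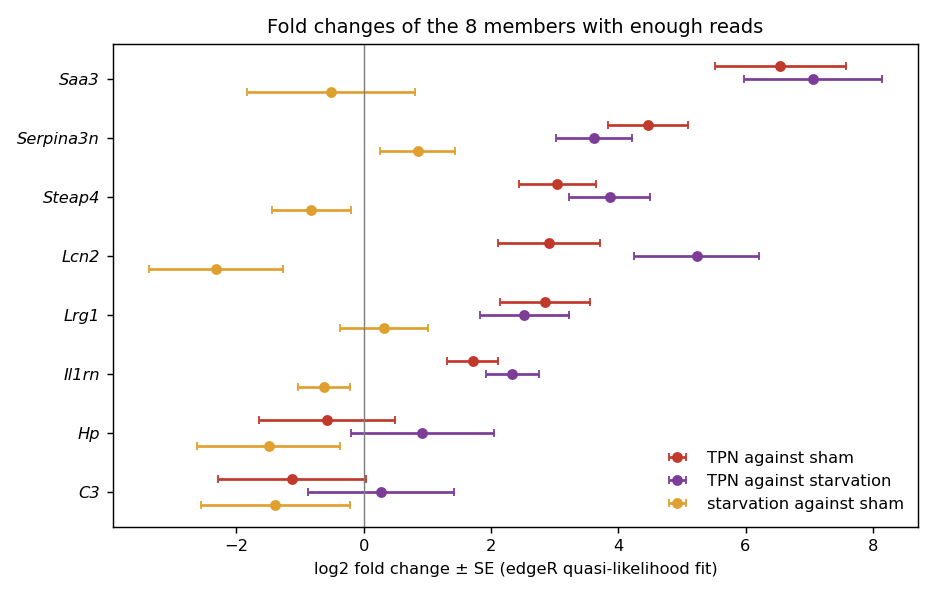
Log2 fold changes (x axis) with SE (error bars) of the 8 tested genes (y axis) for TPN against sham, starvation against sham and TPN against starvation, from the edgeR fit to all 9 libraries. Saa3 reaches 6.54 for TPN against sham and 7.06 for TPN against starvation, while starvation against sham runs from -2.32 for Lcn2 to 0.85 for Serpina3n.

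In starvation against sham, 0 of the 8 tested genes were called higher or lower by edgeR, beside 3.69% of all tested genes called in either direction. For these 8 genes, 0 had an unadjusted p under 0.05, and 0 were called by DESeq2 or limma voom. The median log2 fold change of the 8 was -0.72, beside -0.01 over all tested genes. For 0 of the 8 did the starvation and sham libraries not overlap, beside 25.1% of all tested genes. Leaving out starvation replicate 3 gave 1 call, Serpina3n, in a fit that called 1739 of all genes. Leaving out starvation replicate 3 and sham replicate 2 gave 2 calls, Serpina3n and Hp, in a fit that called 2949. With all libraries 541 genes were called, so these counts cannot be set beside the 3.69%.

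In TPN against starvation, 5 of the 8 tested genes were higher in TPN, beside 1.94% of all tested genes called higher. They were Saa3, Lcn2, Serpina3n, Steap4 and Il1rn. The TPN libraries of this comparison are those on which the genes were chosen as high, so the p-values and the contrast with the share over all genes follow in part from the choice and are no independent evidence. Saa3 rose by 7.06 ± 1.08 on the log2 scale (adjusted p = 0.00905), and the ratio of pooled reads, TPN to starvation, was 143 with a counting interval of 88.0 to 251. All 16 starvation reads of Saa3 came from replicate 3, and without that library Saa3 was at least 548-fold higher in TPN, against a floor of 3 counts over the group. Lcn2 rose by 5.23 ± 0.98 (adjusted p = 0.0167), with a ratio of pooled reads of 41.3 and a counting interval of 15.9 to 153. Serpina3n rose by 3.62 ± 0.60 (adjusted p = 0.0122).

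Steap4 rose by 3.86 ± 0.64 (adjusted p = 0.0114) and Il1rn by 2.34 ± 0.42 (adjusted p = 0.0149) in TPN against starvation. Lrg1, C3 and Hp did not pass, at 2.53 ± 0.70 (adjusted p = 0.0669), 0.27 ± 1.15 (adjusted p = 0.921) and 0.92 ± 1.12 (adjusted p = 0.669). All TPN libraries lay above all starvation libraries for the 5 called genes and for Lrg1, 6 of 8, beside 15.3% of all tested genes that were higher without overlap. With each library left out in turn, the number of calls ran from 1 to 6. The call of Saa3 held in all 9 of those fits. Those of Lcn2 and Il1rn were lost without any 1 of the TPN libraries, and those of Serpina3n and Steap4 without TPN replicate 2 or 3. The adjusted p in those fits reached 0.0782 for Lcn2, 0.0722 for Il1rn, 0.0567 for Serpina3n and 0.0602 for Steap4. Those fits reuse the TPN libraries on which the genes were chosen, so a call that held is no independent evidence either. Saa3 and Lcn2 also had enough reads for the test through the TPN libraries alone.

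Markers of several cell types moved in the same comparisons. Of the 13 epithelial markers, 2 were called lower in TPN against sham, beside 5.12% of all tested genes. In TPN against starvation 2 of the 13 were called lower, beside 3.90% of all tested genes. In starvation against sham 0 of the 13 were called, beside 3.69% called in either direction. The 6 Paneth cell markers, all with reads in every group, summed to 3176 to 4226 CPM in TPN, 509 to 1883 CPM in starvation and 3097 to 3452 CPM in sham libraries. In TPN against starvation, 4 of 6 were called higher, beside 1.94% of all tested genes. In starvation against sham, 3 of 6 were called lower, beside 3.69% of all tested genes called in either direction. The 9 fibroblast markers, likewise all with reads, summed to 253 to 343 CPM in TPN, 267 to 350 CPM in starvation and 482 to 1318 CPM in sham libraries. Of 8 tested, 4 were called lower in TPN against sham, beside 5.12% of all tested genes. In starvation against sham 2 of the 8 were called lower, beside 3.69% of all tested genes called in either direction. Smooth muscle markers summed to 441 to 1276 CPM in TPN, 720 to 1395 CPM in starvation and 1169 to 9673 CPM in sham libraries. Of these 10, 0 were called in either comparison with sham. Over all tested genes, 3.48% were called higher and 5.12% lower in TPN against sham, and 3.69% in either direction in starvation against sham. An unadjusted p under 0.05 was reached by 10 in TPN against sham and by 9 in starvation against sham. The share of all tested genes with such a p is not given here, so nothing is read from those counts. Sham replicate 2 alone stood at 9673 CPM. The part of these cell types in the levels of the acute phase genes was not tested.

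Levels were ordered within each group per kb of annotated exon (GENCODE M21), since longer transcripts collect more reads. In TPN libraries Serpina3n was first at 76.1 ± 7.94 CPM per kb, followed by Lrg1 at 30.8 ± 30.3, Saa3 at 28.7 ± 3.21, C3 at 16.2 ± 15.2 and Steap4 at 11.5 ± 1.23. The ranges of Lrg1, Saa3 and C3 overlapped, and that of Steap4 overlapped with those of Lrg1 and C3, so their order is not set by these libraries. Il1rn at 2.72 CPM per kb, Lcn2 at 2.04 and Hp at 1.87 followed, and Saa1 and Saa2 came last at 0.130 and 0.0528. The ranges of Lcn2 and Hp overlapped, as did those of Saa1 and Saa2. In starvation libraries C3 was first at 13.5 CPM per kb and Serpina3n next at 6.14. In sham libraries C3 was first at 35.4 ± 54.7 CPM per kb, a mean set by sham replicate 2, before Lrg1 at 4.26 and Serpina3n at 3.45. Saa3 followed after Hp, Steap4 and Il1rn in sham libraries, at 0.322 CPM per kb.

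The genes differed in how closely they followed each other over the 9 libraries, a description over libraries that share their groups and their depth. They were chosen as raised in TPN, so high correlations among them follow in part from the choice. Each gene was set against the mean standardised log2 profile of the other 7. Pearson's r was 0.964 for Steap4, 0.916 for Lcn2, 0.905 for Saa3, 0.825 for Il1rn, 0.813 for Serpina3n and 0.728 for Lrg1. Hp at 0.273 and C3 at 0.164 followed the others least. Among 10149 other genes with a mean log2 CPM of at least 3, those most like the mean profile of the 8 were Ppm1k and Gnao1 (r = 0.973 each), Gpx3 and Kxd1 (r = 0.956 each) and Slc39a8 (r = 0.954).

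Of these look-alikes, Slc39a8, which encodes a zinc and manganese importer, stood at 56.4, 61.9 and 76.2 CPM in TPN replicates 1 to 3, 12.4 to 14.9 CPM in starvation and 9.25 to 23.4 CPM in sham libraries. Gnao1, a G protein alpha subunit, stood at 85.8 to 97.7 CPM in TPN, 17.5 to 21.5 CPM in starvation and 18.7 to 48.8 CPM in sham libraries. Between TPN and sham the log2 fold change was 2.19 ± 0.33 for Slc39a8, 1.66 ± 0.32 for Gnao1, 1.15 ± 0.38 for Gpx3, a secreted glutathione peroxidase, 0.55 ± 0.16 for Ppm1k, a mitochondrial phosphatase of branched-chain amino acid breakdown, and 0.41 ± 0.13 for Kxd1. Since these 5 genes were picked for following a profile that is high in TPN, their differences are given without a test.

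Of the cytokines that head the textbook pathways, Il6 and Il22 had few or no reads. Il6 had 0, 2 and 3 reads in TPN replicates 1 to 3 and 0 in every starvation and sham library, and Il22 had 0 in all 9. Il1b, which encodes the secreted IL-1 beta, stood at 14.7, 10.6 and 11.7 CPM in TPN replicates 1 to 3, 1.20, 2.22 and 1.04 CPM in starvation replicates 1 to 3, and 1.77, 3.31 and 2.67 CPM in sham replicates 1 to 3. It rose in TPN against sham by 2.25 ± 0.36 (adjusted p = 0.00842), a call lost only without TPN replicate 1 (adjusted p = 0.0547). Il1b also rose in TPN against starvation by 3.05 ± 0.38 (adjusted p = 0.00373), as its antagonist Il1rn did. Il1a at 1.30 ± 0.39 (adjusted p = 0.0669) and Tnf at 0.64 ± 0.47 did not pass in TPN against sham.

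Of 28 other genes of the IL-1 and NF-kB pathways, all tested, 3 rose and 1 fell in TPN against sham, beside 3.48% of all tested genes called higher and 5.12% called lower. The median log2 fold change was 0.28, beside -0.02 over all tested genes. The risers were Il1b, Irak3 and Tnfaip3. Irak3, an inhibitor of IL-1 receptor and Toll-like receptor signalling, rose by 2.12 ± 0.39 (adjusted p = 0.0132), a call lost without sham replicate 3 or any TPN library (adjusted p up to 0.0656). Tnfaip3, which encodes the NF-kB inhibitor A20, rose by 1.19 ± 0.14 (adjusted p = 0.00279) and held with each library left out. Il33, an alarmin of the IL-1 family, fell by 1.27 on the log2 scale (SE 0.31, adjusted p = 0.0383), a call lost without any of the TPN or sham libraries or starvation replicate 2 (adjusted p up to 0.145). The receptor genes Il1r1 at 0.67 ± 0.41, Il1r2 at 1.69 ± 0.51 (adjusted p = 0.0695) and Il1rap at 0.41 ± 0.24 did not pass, nor did Nfkbia at 0.56 ± 0.22 and Nfkbiz at -0.26 ± 0.19.

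In starvation against sham, 1 of those 28 rose and 1 fell, beside 3.69% of all tested genes called in either direction, so the count is near the background. Tnfaip3 rose by 0.66 ± 0.14 (adjusted p = 0.0395), and Il1rl1, the receptor of IL-33, fell by 1.60 on the log2 scale (SE 0.29, adjusted p = 0.0247). Among the fits that left out 1 library, the Tnfaip3 call was kept only without starvation replicate 1 or 3 (adjusted p up to 0.133). The Il1rl1 call was kept only without sham replicate 2, TPN replicate 3 or starvation replicate 3 (adjusted p up to 0.0870).

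Of 20 tested genes of the IL-6 and STAT3 pathway, 2 rose and 1 fell in TPN against sham, beside 3.48% of all tested genes called higher and 5.12% called lower, with a median of 0.12. Cebpd, which encodes C/EBP delta, a transcription factor of the acute phase response, stood at 110, 107 and 122 CPM in TPN replicates 1 to 3, 44.9, 39.7 and 43.4 CPM in starvation replicates 1 to 3, and 24.3, 39.0 and 24.8 CPM in sham replicates 1 to 3. Each TPN library lay above every other library. Cebpd rose by 1.94 ± 0.19 (adjusted p = 0.00111) against sham and by 1.41 ± 0.19 (adjusted p = 0.00528) against starvation, and both calls held with each library left out. Osmr, the oncostatin M receptor, rose by 2.30 ± 0.47 against sham (adjusted p = 0.0206), a call lost without sham replicate 1, sham replicate 3 or any TPN library (adjusted p up to 0.0841). Socs1, a feedback inhibitor of cytokine receptors, fell by 1.34 on the log2 scale (SE 0.33, adjusted p = 0.0381), lost without any TPN or sham library or starvation replicate 2 (adjusted p up to 0.118). Stat3 at -0.17 ± 0.21, Socs3 at 0.15 ± 0.44, Cebpb at -0.16 ± 0.14, Il6ra at 0.52 ± 0.35 and Il6st at 0.09 ± 0.39 did not pass. In starvation against sham 1 of the 20 genes was called, beside 3.69% of all tested genes called in either direction. It was Bcl3, which fell by 0.84 on the log2 scale (SE 0.17, adjusted p = 0.0321). The Bcl3 call was kept only without sham replicate 1 or starvation replicate 3 (adjusted p up to 0.111).

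**Figure D4:**
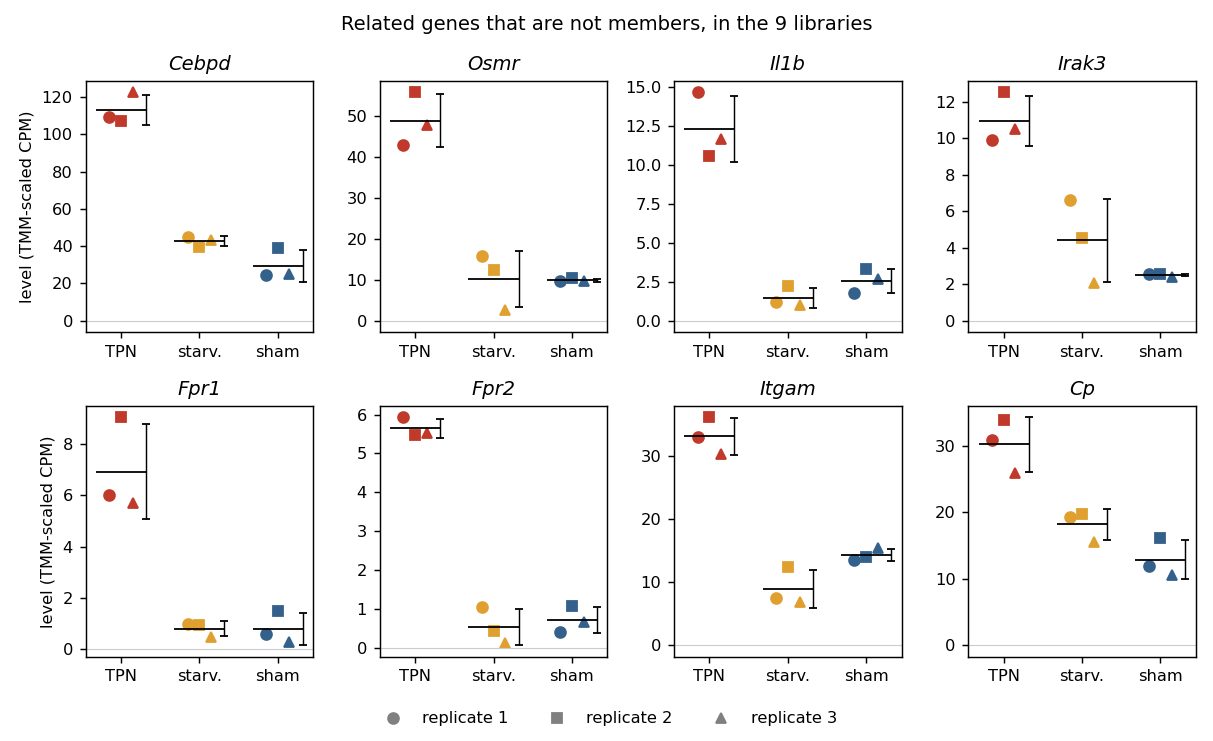
Levels of 8 genes outside the chosen 10 (y axes, TMM-scaled CPM, linear and different for each gene) in TPN, starvation and sham libraries, from left to right. Points are libraries, horizontal bars are means and error bars are SD (n = 3). For Cebpd all TPN libraries lie at or above 107 CPM and all other libraries at or below 44.9 CPM.

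Other acute phase plasma proteins were mostly low or unread in jejunum. Of 28 listed, 12 had enough reads to be tested, and 5 of the 12 rose and 0 fell in TPN against sham, beside 3.48% of all tested genes called higher, with a median of 0.97 beside -0.02 over all tested genes. Among them, Saa4 and Itih3 had enough reads through the TPN libraries alone, so this count and median follow in part from the filter. In starvation against sham, 1 of the 12, Mbl2, rose and 0 fell, beside 3.69% of all tested genes called in either direction. The median there was 0.68 beside -0.01. An unadjusted p under 0.05 was reached by 8 of the 12, a count given without its share over all genes, from which nothing is read. In TPN against starvation, Saa4 was called higher, at 4.48 ± 1.00 (adjusted p = 0.0328), and Serpina1b, a protease inhibitor of the alpha-1-antitrypsin family, lower, at -1.52 ± 0.36 (adjusted p = 0.0411), beside 1.94% of all tested genes called higher and 3.90% called lower, with a median of 0.51. Both of those calls were kept only without sham replicate 2 or starvation replicate 3 (adjusted p up to 0.172). The 5 genes that rose in TPN against sham were Saa4, given above, Itih3, Cp, Vnn1 and Mbl2. Cp, which encodes the copper-carrying ferroxidase ceruloplasmin, stood at 30.9, 34.0 and 25.9 CPM in TPN replicates 1 to 3 and 10.7 to 16.2 CPM in sham libraries, and rose by 1.23 ± 0.21 (adjusted p = 0.0101). The call of Cp was lost without TPN replicate 1 or 2 (adjusted p up to 0.0575). Itih3, an inter-alpha-trypsin inhibitor heavy chain, rose by 4.81 ± 0.99 (adjusted p = 0.0202), with 2.88 to 5.13 CPM in TPN and 0 to 0.294 CPM in sham libraries, and its call was lost without sham replicate 3 or any TPN library (adjusted p up to 0.0830).

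Vnn1, a pantetheinase, rose by 1.59 ± 0.35 (adjusted p = 0.0257), lost without sham replicate 1 or 3 or any TPN library (adjusted p up to 0.102). Mbl2, a mannose-binding lectin that starts complement activation, rose in TPN against sham by 1.99 ± 0.52 (adjusted p = 0.0472) and in starvation against sham by 2.93 ± 0.53 (adjusted p = 0.0266), 2 comparisons that share the sham libraries. Both Mbl2 calls were lost without sham replicate 3, any TPN library or starvation replicate 2, and the one in TPN against sham also without sham replicate 2 (adjusted p up to 0.160). Crp differed by 0.20 ± 0.42 in TPN against sham and by 1.70 ± 0.42 (adjusted p = 0.0563) in starvation against sham, neither past the threshold. Of the plasma proteins that fall in inflammation, 1 of 6 tested was called in TPN against sham, beside 3.48% of all tested genes called higher and 5.12% called lower. It was Serpinc1 (antithrombin), which rose by 1.29 ± 0.33 (adjusted p = 0.0424) and kept its call only without starvation replicate 3 (adjusted p up to 0.136). Serpinc1 was also the 1 of the 6 called in starvation against sham, beside 3.69% of all tested genes called in either direction. There it rose by 1.69 ± 0.33 (adjusted p = 0.0311), kept only without sham replicate 2 or starvation replicate 3 (adjusted p up to 0.0868).

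Hepatocyte markers were near the floor, with 8.16 to 10.2 CPM summed over 10 markers in TPN, 5.98 to 14.9 CPM in starvation and 7.26 to 18.3 CPM in sham libraries. Alb, the gene of albumin and the main product of hepatocytes, had 1, 0 and 2 reads in TPN replicates 1 to 3, 1, 0 and 4 reads in starvation replicates 1 to 3, and 0, 0 and 2 reads in sham replicates 1 to 3.

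Of 33 listed complement genes other than C3, 28 were tested, and 4 rose and 0 fell in TPN against sham, beside 3.48% of all tested genes called higher and 5.12% called lower, with a median of 0.33. They were Mbl2, Masp2, C6 and Cd46. Masp2, the protease that mannose-binding lectin activates, rose by 1.14 ± 0.23 (adjusted p = 0.0194) in TPN against sham and by 1.18 ± 0.23 (adjusted p = 0.0311) in starvation against sham. C6, of the membrane attack complex, rose by 1.96 ± 0.40 in TPN against sham (adjusted p = 0.0206), and Cd46, a complement regulator, by 2.04 ± 0.55 (adjusted p = 0.0495). In TPN against sham, Masp2 and C6 lost the call without sham replicate 3 or any TPN library (adjusted p up to 0.0962), and Cd46 kept it only without sham replicate 2 or starvation replicate 3 (adjusted p up to 0.174). In starvation against sham, Masp2 kept it only without starvation replicate 3 or either of sham replicates 1 and 2 (adjusted p up to 0.103). The complement genes Cfb at -0.14 ± 0.20 and C4b at 0.36 ± 0.49, and the receptor gene C3ar1 at 0.60 ± 0.31, did not pass in TPN against sham.

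Of 23 tested receptors and partners of the proteins, 3 rose and 0 fell in TPN against sham, beside 3.48% of all tested genes called higher, with a median of 0.41. Fpr2, a formyl peptide receptor that also binds serum amyloid A, stood at 5.93, 5.48 and 5.53 CPM in TPN replicates 1 to 3 and 0.393 to 1.07 CPM in sham libraries, and rose by 2.98 ± 0.60 (adjusted p = 0.0187). Fpr2 had enough reads for the test through the TPN libraries alone. Fpr1, its relative, rose by 3.17 ± 0.59 (adjusted p = 0.0141), and Itgam, which encodes the alpha chain of complement receptor 3, by 1.21 ± 0.23 (adjusted p = 0.0149). All 3 calls were lost without sham replicate 1 or any TPN library, and those of Fpr2 and Itgam also without sham replicate 3 (adjusted p up to 0.0845). In TPN against starvation, Fpr1 rose by 3.09 ± 0.58 (adjusted p = 0.0175), Fpr2 by 3.33 ± 0.61 (adjusted p = 0.0165) and Itgam by 1.88 ± 0.23 (adjusted p = 0.00369). There the Itgam call held with each library left out, and those of Fpr1 and Fpr2 were lost without any TPN library or starvation replicate 2 (adjusted p up to 0.0887).

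These receptors are carried by neutrophils and macrophages, whose markers were read beside them. The 13 neutrophil markers summed to 44.4 to 51.0 CPM in TPN, 14.9 to 25.3 CPM in starvation and 34.5 to 43.2 CPM in sham libraries, with reads for 11, 8 and 6 markers, and Ly6g and Elane had 0 reads in all 9 libraries. The 10 macrophage markers, all with reads in every group, summed to 459 to 562 CPM in TPN, 255 to 488 CPM in starvation and 403 to 784 CPM in sham libraries. S100a8, which encodes a calprotectin subunit of neutrophils, stood at 2.50 to 3.21 CPM in TPN and 0 to 0.747 CPM in sham libraries, and did not pass in TPN against sham at 3.45 ± 0.98 (adjusted p = 0.0598). S100a8 had enough reads for the test through the TPN libraries alone. In TPN against starvation it rose by 4.82 ± 1.12 (adjusted p = 0.0373), a call kept only without starvation replicate 1 or either of sham replicates 1 and 2 (adjusted p up to 0.129). Of the 5 neutrophil markers with enough reads, 1, Cxcr2, was called higher in TPN against sham, beside 3.48% of all tested genes. In TPN against starvation 3, S100a8, Cxcr2 and Mmp9, were called higher, beside 1.94%. Mmp9 was called lower in starvation against sham, beside 3.69% called in either direction. The call of Cxcr2 in TPN against sham did not hold without either of sham replicates 1 and 3 or any TPN library (adjusted p up to 0.112), and the 3 calls in TPN against starvation without TPN replicate 2 or 3, those of S100a8 and Mmp9 also without TPN replicate 1. The call of Mmp9 in starvation against sham was kept only without sham replicate 2 or either of starvation replicates 2 and 3 (adjusted p up to 0.101). S100a9, the partner of S100a8, had 8, 5 and 5 reads in TPN replicates 1 to 3 and 0 in every starvation and sham library. The part of neutrophils and macrophages in the levels of the acute phase genes was not tested.

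Of 14 tested genes of epithelial and mucosal defence, 2 rose and 0 fell in TPN against sham, beside 3.48% of all tested genes called higher, with a median of 0.38. Both encode chemokines that attract neutrophils. Both had enough reads for the test through the TPN libraries alone. Cxcl1 stood at 3.46, 3.22 and 3.04 CPM in TPN replicates 1 to 3 and 0 to 0.213 CPM in sham libraries (log2 fold change 4.92 ± 1.00, adjusted p = 0.0196). Cxcl5 rose by 2.78 ± 0.73 (adjusted p = 0.0475). Cxcl1 lost the call without sham replicate 1 or 3 or any TPN library, and Cxcl5 kept it only without starvation replicate 1 or 3 (adjusted p up to 0.150). The antimicrobial lectin genes Reg3b at 1.18 ± 0.40 (adjusted p = 0.101) and Reg3g at -1.09 ± 0.48 (adjusted p = 0.176) did not pass.

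**Figure D5:**
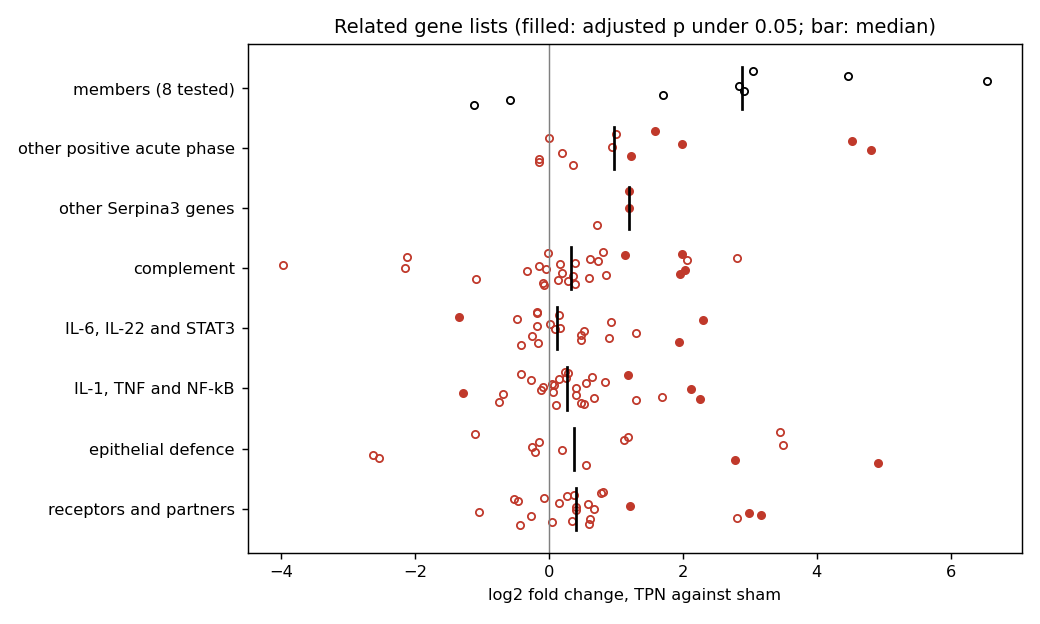
Log2 fold change between TPN and sham (x axis) of each tested gene of the chosen set and of 7 related lists (y axis), 1 point a gene, filled where the adjusted p of a gene outside the set was under 0.05, with a bar at each list's median. The chosen genes, picked on this contrast, have a median of 2.88, and the median of the other acute phase proteins is 0.97.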

How the data were processed

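RNA was measured in 9 libraries of mouse jejunum, 3 each for TPN, starvation and sham, grouped by the labels. The authors deposited raw counts per gene symbol. Tools named in the submitters' processing notes include STAR 2.7.2e and featureCounts 2.0.0, after cutadapt 2.9, on GRCm38 (mm10). Not given in the sources used here are the gene annotation, the counting strand and what was done with reads of several possible origins. Per the labels' protocols, oligo(dT) beads selected mRNA and random hexamers primed its copying, and no step that marks the strand is named. No exon of the 10 genes overlapped an exon of another gene in GENCODE M21. A further 9 columns of counts, headed with the same treatment names, matched no labelled sample and were used in no step. Each result therefore rests on the 3 labelled libraries of a group alone. At a first look, those columns headed TPN held low counts of Saa3 and Serpina3n, unlike the labelled TPN libraries. No further check was made in them, and whether they are replicates of these groups is not known.

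From these counts, filterByExpr kept 14668 of 21868 genes, TMM factors scaled the libraries, and a quasi-likelihood model in edgeR 4.0.16 (R 4.3.3) estimated group means from all 9 libraries, with 6 residual degrees of freedom. The filter asks for enough reads in as many libraries as a group holds. A gene read almost only in TPN was therefore tested through those libraries alone. Adjusted p-values are Benjamini-Hochberg over all tested genes, and called means an adjusted p under 0.05. An SE was derived from the fold change and the root of its F value. The fit was tested on simulated data. Counting intervals are exact at 95% and cover counting error only, since without molecular identifiers several reads can come from 1 molecule.

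The genes and the related lists were chosen with earlier results of these data known. Genes named outside the set are a fixed group of ligands, receptors, factors and acute phase genes, the up to 4 genes of each list with the smallest adjusted p under 0.05 in TPN against sham and in starvation against sham, and the 5 genes most like the mean profile. Adipoq, Plin1, Alb, Ly6g, Elane, Cxcr2 and Mmp9 are cell type markers, Serpina1b was named after its value was seen, and Steap1, Steap2 and Steap3 were added to complete their family. Alternatives were DESeq2 1.42.0, limma voom (limma 3.58.1), other scaling factors or library totals only, no filter or a filter of at least 1 CPM in at least 3 libraries, fits without the group not compared, a block for the replicate number, an adjusted p under 0.01, Saa1 and Saa2 summed, and libraries left out.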

Additional observations from a re-analysis of the deposited data

How the results depend on the processing

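Of the 8 tested acute phase genes, 5 were called between TPN and sham, all higher in TPN, beside 3.48% of all tested genes called higher. The number was 3 with the replicate number as a block, 2 at an adjusted p under 0.01, and 2 to 6 with each library left out in turn. It was 7 without sham replicate 2 and starvation replicate 3, and 7 when TPN replicate 3 was left out as well. The genes were chosen on this contrast, so these numbers restate the choice and nothing is read from them. Between starvation and sham, 0 were called, 2 without sham replicate 2 and starvation replicate 3, 3 when TPN replicate 3 was left out as well (an alternative chosen after seeing the data), and 0 to 1 with each library left out. Between TPN and starvation, 5 were called, 1 at an adjusted p under 0.01, and 1 to 6 with each library left out.

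C3 turned direction without the libraries that stood apart. Its log2 fold change between TPN and sham was 2.12 without sham replicate 2 and starvation replicate 3, and 0.96 without TPN replicate 3 as well. It counted among the called genes in both fits, which called 4425 and 3765 of all genes. Since C3 was chosen on this contrast, nothing is read from those calls. Between starvation and sham it was 1.40 without all 3 (adjusted p = 0.0128), in a fit that called 2949 of all genes. DESeq2 gave C3 no adjusted p.

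Over all genes, 1261 were called between TPN and sham. DESeq2 called 2265, a fit of only those groups 2774, the block 556, an adjusted p under 0.01 258, leaving out sham replicate 2 and starvation replicate 3 4425, leaving out TPN replicate 3 as well 3765, and leaving out each library 216 to 3182. Between starvation and sham, 541 were called. DESeq2 called 1525, library totals 353, a fit of only those groups 2, the block 71, an adjusted p under 0.01 30, leaving out the 2 or the 3 libraries 2949 each time, and leaving out each library 32 to 1739. Between TPN and starvation, 857 were called. DESeq2 called 1689, a fit of only those groups 545, the block 386, an adjusted p under 0.01 144, leaving out the 2 libraries 3205, leaving out the 3 libraries 2649, and leaving out each library 124 to 1248. The cause of these differences was not tested, beyond the fewer libraries or genes that an alternative uses.

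Same-numbered libraries of different groups did not deviate together. The correlation of their deviations ran from -0.300 to 0.378, with 2 of 9 pairs over 0.1, so the numbers were not taken to pair the libraries. Library totals in place of TMM factors shifted the median log2 fold change of all genes by 0.189 in TPN against sham and by 0.143 in TPN against starvation. Depth limits Saa1, Saa2 and the levels of Saa3 and Lcn2 outside TPN, which rest on a few reads.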
